A study of Mus musculus with 6 samples.

Results

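Eph receptors, ephrins, Slits, Robo receptors, netrins and their receptors are the secreted and cell-surface cues by which growing axons are steered, and the set described here holds 41 genes of 18193 genes with a single-gene probe set on the array. They were chosen by symbol alone: every gene whose symbol starts with Epha, Ephb, Efna, Efnb, Slit, Robo, Ntn or Unc5 followed by a digit or letter, plus Dcc, with the Slitrk genes left out. The prefix also takes in Unc50, a Golgi protein, and Unc5cl, a death-domain relative of the UNC5 receptors, neither of which is a guidance receptor. Where a gene had several probe sets, the brightest by its average over all 6 arrays stood for it. Olfactory epithelium, the sensory lining of the nasal cavity, was taken from 3 mutant and 3 wild-type mouse pups at an age of 1 day, all on a mixed background of the strains C57Black6/J and 129SvJ, and the RNA of each pup was amplified and put on an array of its own. The study looked for genes regulated in olfactory neurons by KLF7, a Krüppel-like zinc finger protein. The labels say mutant and wildtype and give no allele, promoter or Cre, so what limits the mutant as a model is not known from them.

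Olfactory sensory neurons send axons from this epithelium to the olfactory bulb, where each axon must find a position along the dorsal to ventral and anterior to posterior axes. In mouse, Robo2 on dorsal axons and its ligand Slit1 act in the dorsal to ventral sorting, and ephrin-A3 and ephrin-A5 on the axons act in the placing of glomeruli. Ephrins are bound to the membrane and can signal in both directions on contact with an Eph receptor tyrosine kinase, Slits are secreted and repel through Robo receptors, and netrins attract through DCC or repel through UNC5 receptors. Several of the same genes also work outside neurons, with Ephb4, Efnb2 and Robo4 known from blood vessels and Epha1 and Epha2 from epithelia.

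KLF factors are known to bind CACCC boxes and GC boxes, so the promoters of 3 receptor genes are shown: Epha5, whose groups did not overlap, and Epha3 and Ephb4, which had the smallest unadjusted p on the higher and lower side. Each is the RefSeq window of GRCm38.p6 from 250 bases before to 50 bases after the start of the gene, written 5′ to 3′ on the strand of the gene. The windows are chr5:84417333-84417632 (- strand), chr16:63864126-63864425 (- strand) and chr5:137349859-137350158 (+ strand). Capitals mark CACCC and its reverse complement GGGTG, and CCGCCC and its reverse complement GGGCGG, which can overlap each other by shared C or G bases.
Epha5: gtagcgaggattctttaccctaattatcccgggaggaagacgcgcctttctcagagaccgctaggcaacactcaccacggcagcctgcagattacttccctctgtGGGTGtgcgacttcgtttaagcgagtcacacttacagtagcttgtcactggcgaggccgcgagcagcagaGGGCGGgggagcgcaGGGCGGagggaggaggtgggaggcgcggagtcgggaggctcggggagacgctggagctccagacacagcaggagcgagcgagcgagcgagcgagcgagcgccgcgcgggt
Epha3: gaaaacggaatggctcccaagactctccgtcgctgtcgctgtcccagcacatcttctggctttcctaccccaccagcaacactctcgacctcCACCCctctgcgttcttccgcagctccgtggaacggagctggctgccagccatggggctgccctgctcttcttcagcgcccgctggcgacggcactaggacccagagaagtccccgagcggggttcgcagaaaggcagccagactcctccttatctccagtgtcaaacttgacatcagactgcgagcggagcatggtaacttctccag
Ephb4: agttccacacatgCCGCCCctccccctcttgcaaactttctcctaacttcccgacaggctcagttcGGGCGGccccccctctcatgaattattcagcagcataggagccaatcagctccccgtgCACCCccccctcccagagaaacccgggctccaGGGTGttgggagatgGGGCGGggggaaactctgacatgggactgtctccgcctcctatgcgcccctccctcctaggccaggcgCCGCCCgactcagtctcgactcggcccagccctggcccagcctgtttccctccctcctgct
The Epha5 window holds 1 CACCC and 2 CCGCCC matches, that of Epha3 1 and 0, and that of Ephb4 2 and 4, both strands counted. Of the 41 genes, 36 had an entry in the promoter table, with 41 windows in all. CACCC stood in 75.6% of these windows and in 63.4% of the 13044 windows of all genes tested, and CCGCCC in 70.7% of these and 60% of those. The windows of the set include those of genes too dim to test, so the 2 groups of windows were not filtered alike. In the 32851 windows of all genes in the promoter table the shares were 57.5% for CACCC and 35.7% for CCGCCC. A match of these letters is a description and not a binding site.

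Levels below are log2 intensities after quantile normalization, with a floor of 3.65, and each difference is mutant minus wild type on that scale. Probe sets differ in efficiency, so a level is compared between arrays and not between genes. All 4 Klf7 probe sets were lower in mutant than in wild type with no overlap, among them 1419354_at at 6.85, 5.70 and 5.26 on mutant arrays 1, 2 and 3, against 9.36, 8.58 and 9.04 on wild-type arrays 1, 2 and 3 (limma, adjusted p = 0.00361 over the 4 probe sets; exact two-sided permutation p = 0.1, the smallest that 3 arrays against 3 allow). Markers of mature olfactory sensory neurons were present: all 11 of 15 listed genes with a probe set were tested and none lay at the floor, with medians of 8.98, 9.28 and 9.44 on the mutant arrays, against 10.08, 9.63 and 9.96 on the wild-type arrays. Of these 11 markers 9 were lower in mutant, with a median difference of -0.86, as were 11 of 15 markers of immature neurons, with a median of -0.17. Among all genes tested 52.6% were lower. The groups of 6 of the 11 and 4 of the 15 did not overlap, each with mutant lower, beside 2.86% of all genes. At an unadjusted p under 0.05 (limma) stood 6 of the 11 and 1 of the 15, beside 0.598% of all genes. The marker lists were chosen with earlier results of these data known. All 10 tested markers of sustentacular cells and Bowman glands were higher in mutant, with a median of 0.25. Their medians were 10.82, 10.85 and 11.12 on the mutant arrays, against 10.83, 10.73 and 10.29 on the wild-type arrays, so arrays numbered 1 barely differed. All 6 tested markers of multiciliated cells were also higher, with a median of 0.32. Their medians were 7.98, 7.68 and 8.28 on the mutant arrays, against 7.42, 7.68 and 7.92. The groups of each marker in these 2 lists overlapped. In each pair of arrays with the same number, 0 of the 10 and 3 of the 6 were higher in mutant, beside 6.31% of all genes. In bulk RNA, fewer neurons and less RNA per neuron cannot be told apart, and the part of these cells in the guidance gene values was not tested. Arrays mutant 3 and wild type 3 stood apart from the other 4 on the first principal component, at 49.5 and 98.2 against -42.4 to -32.3. The labels do not say what arrays of the same number share.

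Of the 41 genes, 31 had a mean of at least 5.19 and were tested, and 10 were too dim. The 10 were Efna4, Epha6, Epha8, Ntn3, Ntng2, Robo2, Robo3, Slit3, Unc5b and Unc5cl. No gene of the set differed between mutant and wild type past the threshold: limma called 0 of the 31 (adjusted p = 1 for each) and had 0 at an unadjusted p under 0.05, where it called 0.00% of the 12703 genes tested and had 0.598% at an unadjusted p under 0.05 (mutant lower for 0.441% and higher for 0.157%). A fit that blocked on the replicate number again had 0 of either kind in the set, against 1.24% of all genes at an unadjusted p under 0.05. Klf7 itself, tested on 1449439_at with a difference of -2.15, was not called over all genes in either fit. An uncalled gene of the set is therefore not shown to be unchanged. Of the 31 genes 12 were lower and 19 higher in mutant, or 38.7% lower, beside 52.6% lower among all genes tested. Unc5a, counted as higher, and Ephb6, counted as lower, had a mean below the dim level in 1 group and passed the filter only through the other, so their directions are no support for the count. The median difference was 0.13 for the set and -0.02 for all genes, and the median standard error 0.617 and 0.506. The intervals in the plot of differences by family all span 0.

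**Figure D1:**
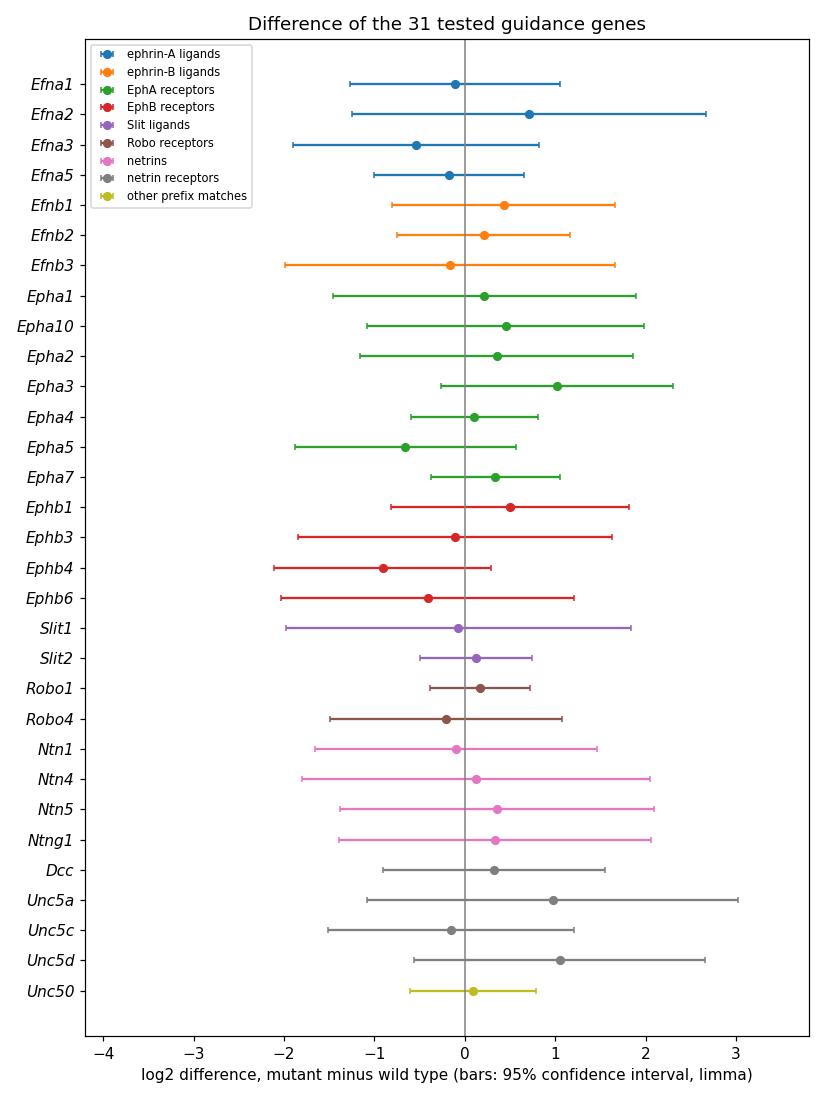
Log2 difference, mutant minus wild type, of the 31 tested genes, coloured by family, with 95% confidence intervals from limma (n = 3 arrays per group). The points run from -0.91 for Ephb4 to 1.05 for Unc5d, and each interval crosses 0.

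The ephrin-A ligands are anchored to the membrane by a lipid. Efna3 was measured at 8.03, 7.04 and 8.13 on mutant arrays 1, 2 and 3, against 8.80, 9.19 and 6.84 on wild-type arrays 1, 2 and 3. The 2 highest values were wild-type arrays 1 and 2 and the lowest was wild-type array 3, so the groups overlapped. Its means were 7.73 ± 0.60 in mutant and 8.28 ± 1.26 in wild type (SD, n = 3 each), a difference of -0.54 (SE 0.618; limma, unadjusted p = 0.397, adjusted p = 1). A second Efna3 probe set gave -0.35, with 7.64, 7.49 and 7.55 in mutant, against 8.12, 8.64 and 6.97 in wild type. Both probe sets thus had wild-type array 3 below every mutant array and the other 2 wild-type arrays above every mutant array. Without wild-type array 3 the Efna3 difference was -1.29 (limma, unadjusted p = 0.0163, adjusted p = 1) and without both arrays numbered 3 it was -1.51 (limma, unadjusted p = 0.0107, adjusted p = 1). It was -0.68 without mutant array 1 and -0.75 without mutant array 3. It was smaller when each of the remaining arrays was left out, at -0.088 without wild-type array 2, -0.20 without mutant array 2 and -0.28 without wild-type array 1.

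Efna5 was at 9.13, 9.68 and 8.37 on the mutant arrays, against 9.49, 9.12 and 9.09 on the wild-type arrays, a difference of -0.17 (95% interval -1.00 to 0.65). The mutant arrays held both the highest and the lowest value. Efna2 had 9.00, 8.50 and 7.46 in mutant, against 8.93, 8.80 and 5.11 in wild type, a difference of 0.71 (SE 0.891). Wild-type array 3 was the lowest by far, and without it the difference was -0.55. Efna1, a ligand also known from blood vessels, differed by -0.11 (SE 0.527). Efna4 was too dim to test, at 4.39, 4.09 and 4.60 in mutant, against 4.59, 4.64 and 5.63 in wild type.

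Ephrin-B ligands cross the membrane and have a signalling tail of their own. Efnb1 was at 9.12, 8.71 and 8.00 in mutant, against 8.70, 8.96 and 6.89 in wild type, a difference of 0.43 (SE 0.56). Both groups had their lowest value on array 3, and without wild-type array 3 the difference was -0.22. Efnb2, also a marker of arteries, was at 9.11, 9.71 and 8.67 in mutant, against 9.79, 8.32 and 8.76 in wild type, a difference of 0.21 (SE 0.434). Efnb3 was at 6.87, 4.56 and 5.48 in mutant, against 6.51, 6.15 and 4.74 in wild type, a difference of -0.16 (SE 0.828). In both genes the mutant arrays spanned most of the wild-type range.

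Of 7 tested EphA receptors 6 were higher in mutant (14.3% lower, beside 52.6% of all genes tested), and none passed the threshold. No test of this count was made. Epha5, a receptor of ephrin-A ligands on many axons, was the exception and the only gene of the 31 whose groups did not overlap. It had 6.60, 6.66 and 5.79 on mutant arrays 1, 2 and 3, against 7.27, 6.76 and 6.98 on wild-type arrays 1, 2 and 3. Every mutant value lay below every wild-type value, the nearest being mutant array 2 and wild-type array 2. The difference was -0.66 (SE 0.554), 1.58-fold lower in mutant (limma, unadjusted p = 0.261, adjusted p = 1), and it was -0.38 without mutant array 3. Groups without overlap made up 2.86% of all genes tested (1.95% with mutant lower) and 1 of the 31 here, which is near that background. Epha5 was also the 1 gene of the set lower in each pair of arrays with the same number, beside 9.46% of all genes, with pair differences of -0.67, -0.11 and -1.19. The other Epha5 probe sets above the dim level differed by -0.08 and 0.02, with overlapping groups, so the separation of the groups held on 1 of 3 such probe sets.

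Epha3, a receptor with a high affinity for ephrin-A5, was at 9.31, 9.18 and 7.88 in mutant, against 6.56, 8.53 and 8.24 in wild type. Mutant arrays 1 and 2 exceeded every wild-type array, and mutant array 3 lay below wild-type arrays 2 and 3. The means were 8.79 ± 0.79 in mutant and 7.78 ± 1.06 in wild type (SD, n = 3 each), a difference of 1.02 (SE 0.582), 2.02-fold (limma, unadjusted p = 0.108, adjusted p = 1). A second bright Epha3 probe set gave 1.01, with 8.50, 8.52 and 7.42 in mutant, against 6.18, 8.36 and 6.88 in wild type. Wild-type array 1 was the lowest on both, and without it the difference was 0.40. Without both arrays numbered 3 it was 1.76 (limma, unadjusted p = 0.0155, adjusted p = 1).

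Epha7, a receptor of ephrin-A ligands with truncated splice forms, was at 9.46, 9.71 and 9.32 in mutant, against 9.35, 9.49 and 8.65 in wild type, a difference of 0.34 (SE 0.323) that was 0.08 without wild-type array 3. It was higher in mutant in each same-number pair. The other genes higher in each such pair, on the probe sets used, were Unc5d and Unc50, and such genes made up 6.31% of all tested. Epha4, which binds ephrins of both classes, differed by 0.10 with a 95% interval of -0.60 to 0.80. Epha1 differed by 0.22 (SE 0.761), Epha2 by 0.35 (SE 0.686) and Epha10, a receptor without kinase activity, by 0.45 (SE 0.695). The second bright Epha1 probe set went the other way, at -0.50. Epha6 and Epha8 lay at the floor on all 6 arrays.

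EphB receptors bind mainly ephrin-B ligands, and none of the 4 tested passed the threshold. Ephb4, a receptor of ephrin-B2 in veins, had 7.15, 6.22 and 6.27 on mutant arrays 1, 2 and 3, against 7.07, 7.27 and 8.03 on wild-type arrays 1, 2 and 3. Mutant arrays 2 and 3 lay below all wild-type arrays, and mutant array 1 lay just above wild-type array 1. The means were 6.55 ± 0.52 in mutant and 7.46 ± 0.51 in wild type (SD, n = 3 each), a difference of -0.91 (SE 0.545), 1.88-fold lower (limma, unadjusted p = 0.123, adjusted p = 1), and it was -0.51 without both arrays numbered 3. Of 9 tested endothelial markers 3 were lower in mutant, with a median difference of 0.12 and medians of 7.23, 6.95 and 6.74 on the mutant arrays, against 7.07, 6.50 and 7.52 on the wild-type arrays. The sum of the 10 endothelial markers was 1586 to 1892 in linear intensity on the mutant arrays, against 1412 to 1913 on the wild-type arrays. Of the defining markers Cdh5 was too dim to test, with mutant array 3 at the floor, and Pecam1 was at 5.72, 6.21 and 4.22 in mutant, against 6.26, 5.05 and 4.31 in wild type. The part of endothelial cells in the Ephb4, Efnb2 and Robo4 values was not tested.

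Ephb1 was at 7.59, 8.62 and 7.17 in mutant, against 7.79, 7.89 and 6.21 in wild type, a difference of 0.50 (SE 0.597) that was -0.05 without wild-type array 3. Ephb6, a receptor without kinase activity, was at 5.25, 4.60 and 5.26 in mutant, against 5.06, 5.79 and 5.48 in wild type, a difference of -0.41 (SE 0.737). The groups of both genes overlapped. Ephb3 differed by -0.11 (SE 0.787).

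**Figure D2:**
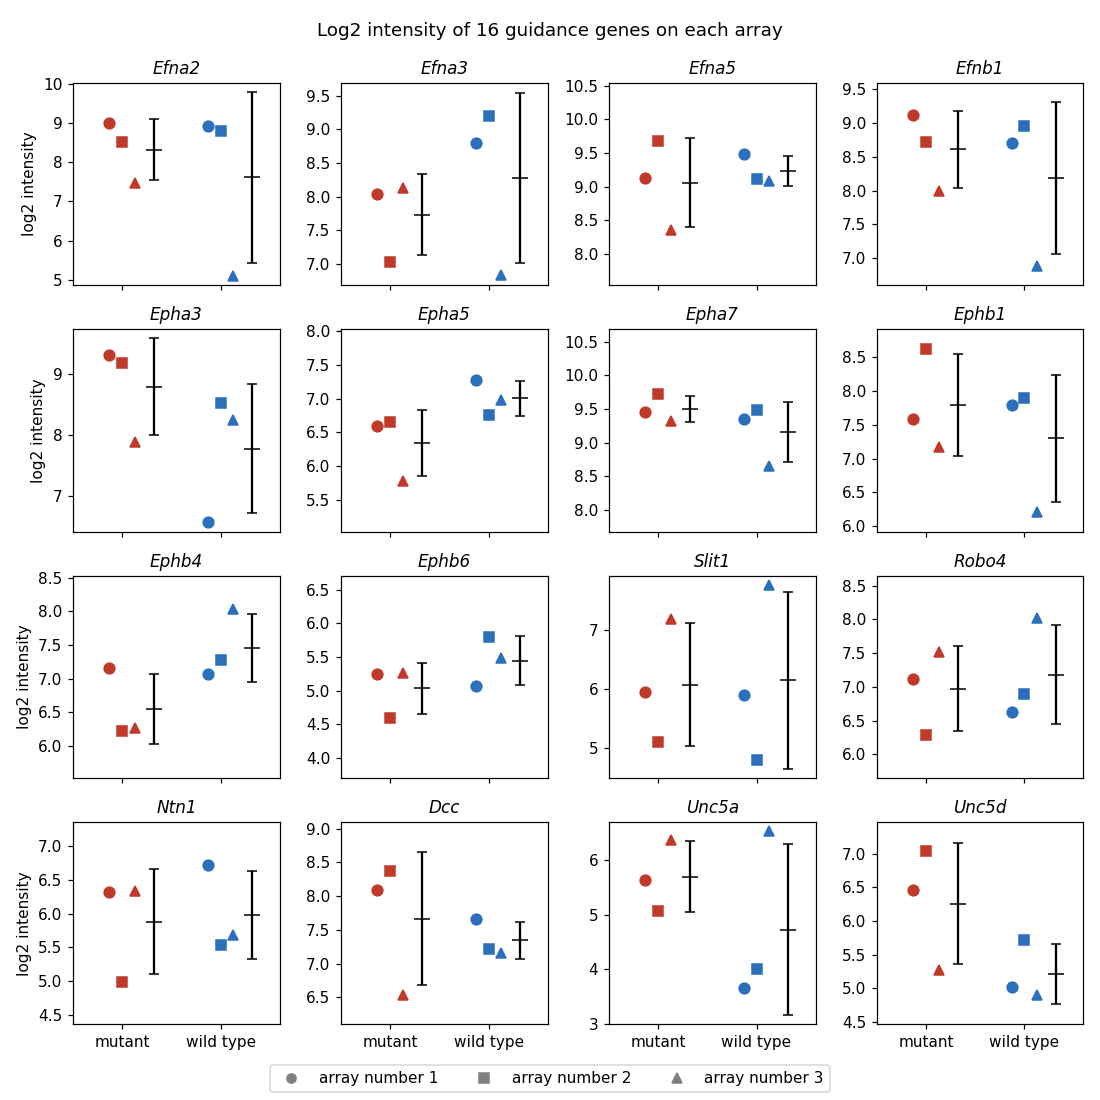
Log2 intensity of 16 genes on each array, mutant left and wild type right, with marker shape giving the array number and bars the mean ± SD of 3 arrays (vertical axes differ between panels). Epha5 alone has no overlap of the groups, and in Efna2, Efnb1 and Slit1 array 3 lies apart from arrays 1 and 2 in both groups.

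Among the Slits, Slit2 differed by 0.13 (SE 0.282, 95% interval -0.49 to 0.75), with means of 10.51 ± 0.35 in mutant and 10.39 ± 0.42 in wild type (SD, n = 3 each). Slit1, the ligand of the dorsal to ventral sorting, was at 5.94, 5.10 and 7.18 in mutant, against 5.89, 4.80 and 7.76 in wild type, a difference of -0.07 (SE 0.867). Arrays numbered 3 were the highest in both groups on this probe set, but not on the second bright Slit1 probe set. Slit3 was too dim to test, with 3 of its 6 values at the floor.

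Robo1, a Slit receptor, had the narrowest interval of the set, with a difference of 0.17 (SE 0.25, 95% interval -0.38 to 0.72) and means of 11.30 ± 0.28 in mutant and 11.13 ± 0.44 in wild type (SD, n = 3 each). Robo2 was too dim to test: it read 4.27, 3.65 and 3.65 in mutant, the last 2 at the floor, against 3.93, 4.75 and 6.51 in wild type. Mutant array 1 lay above wild-type array 1, so the groups overlapped. Robo4, an endothelial receptor, was at 7.12, 6.28 and 7.52 in mutant, against 6.63, 6.90 and 8.02 in wild type, a difference of -0.21 (SE 0.582). Robo3, known from axons crossing the midline, was too dim, with 1 value at the floor in each group.

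Netrins are diffusible or matrix-bound cues, and netrin-G proteins are lipid-anchored relatives that bind NGL proteins and not DCC. Ntn1 was at 6.33, 4.99 and 6.33 in mutant, against 6.73, 5.53 and 5.68 in wild type, a difference of -0.09 (SE 0.708). Its groups overlapped, with the lowest value in mutant and the highest in wild type. Ntn4, a basement membrane netrin, differed by 0.12 (SE 0.875), Ntn5 by 0.36 (SE 0.788) and Ntng1 by 0.33 (SE 0.783). Ntn3 was too dim, at 4.99, 5.69 and 4.95 in mutant, against 4.66, 4.88 and 4.98 in wild type, and so was Ntng2, with 2 wild-type values at the floor.

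None of the 4 tested netrin receptors passed the threshold. Unc5d, a receptor that repels and also binds FLRT proteins, was at 6.46, 7.05 and 5.28 in mutant, against 5.03, 5.72 and 4.90 in wild type. Mutant arrays 1 and 2 exceeded all wild-type arrays and mutant array 3 lay between them. The means were 6.26 ± 0.90 in mutant and 5.21 ± 0.44 in wild type (SD, n = 3 each), a difference of 1.05 (SE 0.73), 2.07-fold (limma, unadjusted p = 0.179, adjusted p = 1). Without mutant array 2 the difference was 0.65 (limma, unadjusted p = 0.446). The pair differences were 1.43, 1.33 and 0.38, and in the fit with the replicate block limma gave an unadjusted p of 0.0644 and an adjusted p of 1.

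Unc5a had 5.65, 5.07 and 6.37 in mutant, against 3.65, 4.01 and 6.53 in wild type, with wild-type array 1 at the floor. The difference was 0.97 (SE 0.931), its size depends on where the floor is set, and the highest of all 6 values was wild-type array 3. Leaving out wild-type array 1 gave 0.44, leaving out wild-type array 2 gave 0.61, and it was 0.63 with the floor at the 30th percentile. Dcc, the attractive netrin receptor, was at 8.09, 8.37 and 6.54 in mutant, against 7.66, 7.21 and 7.15 in wild type, a difference of 0.33 (SE 0.558). Mutant arrays 1 and 2 were the highest and mutant array 3 the lowest of the 6. Unc5c averaged 6.96 ± 0.87 in mutant and 7.12 ± 0.70 in wild type (SD, n = 3 each), so it differed by -0.15 (SE 0.617), and the groups overlapped. Unc5b, known from blood vessels as well as axons, was too dim to test, at 5.44, 4.53 and 5.11 in mutant, against 5.51, 5.59 and 3.65 in wild type. Unc50 differed by 0.09 (SE 0.317), while its other probe sets above the dim level went the other way, at -0.22 and -0.45.

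Many of these genes differed between arrays numbered 3 and the other 4 arrays, in both genotypes. Both arrays numbered 3 lay outside the range of the other 4 arrays for 17 of the 31 genes, or 54.8%, beside 38.0% of all genes tested. On 8 genes both lay above the other 4 (18.9% of all genes) and on 9 below (19.1%). The 8 were Efna1, Epha1, Epha2, Ntn5, Ntng1, Robo4, Slit1 and Unc5a, with Epha1 at 8.40 and 8.92 on mutant array 3 and wild-type array 3, against 6.26 to 6.92 on the others. The 9 were Dcc, Efna2, Efna5, Efnb1, Epha7, Ephb1, Ephb3, Ntn4 and Slit2. The mean of the arrays numbered 3 minus that of the other 4 ran from -2.53 for Efna2 to 2.08 for Epha1, while the genotype differences ran from -0.91 to 1.05.

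**Figure D3:**
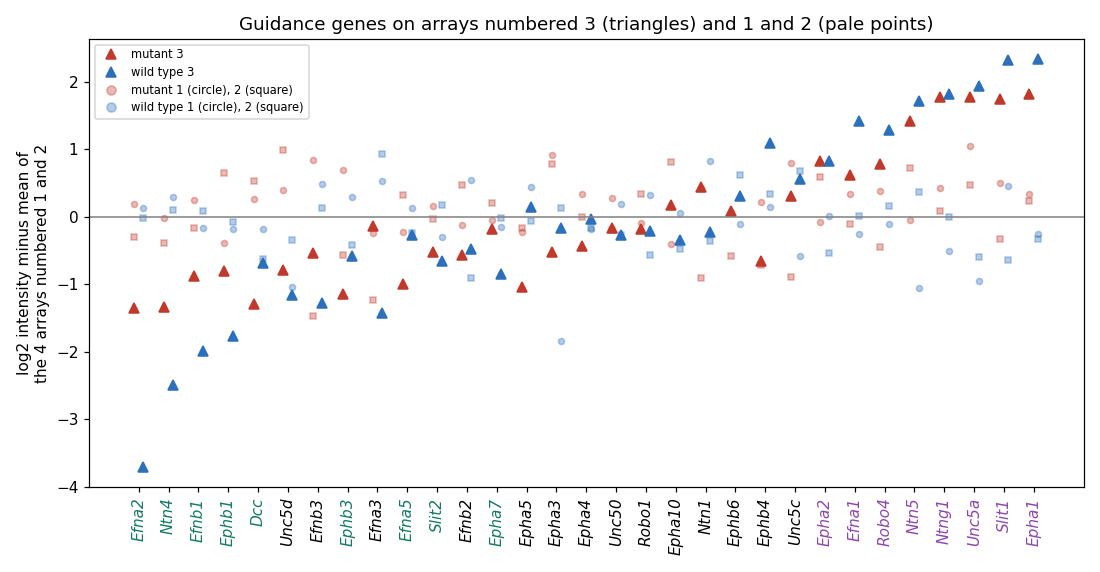
Log2 intensity of each tested gene minus its mean on the 4 arrays numbered 1 and 2, with arrays numbered 3 as triangles (gene names in green where both lie below the other 4, in purple where both lie above). For 17 of the 31 genes both triangles fall outside the range of the pale points.

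Probe sets of the same gene did not always move together on these arrays. Of the 13 genes with over 1 probe set above the dim level, 4 had all their probe sets on the same side (Efna2, Epha1, Ntng1 and Slit2), and 2 had probe sets on opposite sides. A further 4 had only part of their probe sets outside the range of the other arrays, and 3 had none outside it. Slit1 was shifted on the probe set used but not on its second, 1440056_at (number 3 minus others, -0.04). For Dcc the brighter probe set was lower on the arrays numbered 3 by a mean of 0.99 (number 3 minus others, -0.99), and the other was higher by 2.15, with 7.79 on mutant array 3 and 7.38 on wild-type array 3, against 4.98 to 6.08 elsewhere. For Efnb1 the shift was -1.43 on 1418285_at, 1.74 on 1418286_a_at and 1.80 on 1451591_a_at. Where in their transcripts these probe sets lie is not known here, and the part of RNA quality or amplification in the shift was not tested. Between genotypes, 7 of the 13 genes had 1 sign on all their bright probe sets and 6 had both signs, with Epha3 at 1.02 and 1.01 and Efnb1 at 0.43, -0.12 and -1.04.

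**Figure D4:**
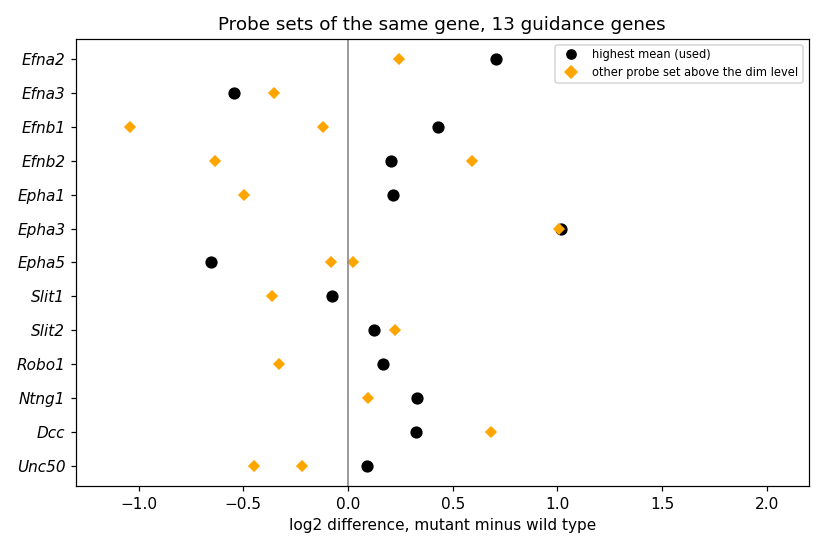
Log2 difference, mutant minus wild type, of each probe set above the dim level for the 13 genes with more than 1, with black circles for the probe set used. The Epha3 probe sets nearly coincide at 1.02 and 1.01, and those of Efnb1 spread from -1.04 to 0.43.

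The signalling partners of these cues were read from the same fit. Of 21 tested effectors of Eph receptors and ephrins 6 were lower in mutant, with a median difference of 0.04, beside -0.02 for all genes. Kalrn, a protein of dendritic spines, had groups that did not overlap and differed by 0.47 (SE 0.262), where 0.905% of all genes had no overlap with mutant higher. Pick1, a PDZ protein, differed by 1.35 (SE 0.892). On the lower side Rgs3, a regulator of G protein signalling that acts below ephrin-B, differed by -0.39 (SE 0.325) and Tiam1, a Rac exchange factor, by -0.37 (SE 0.369). Of 22 effectors of Slit and Robo 11 were lower, with a median of -0.02, with the heparan sulfate proteoglycans Sdc3 at 0.97 (SE 0.605) and Gpc1 at -0.30 (SE 0.241), the exchange factor Sos1 at 0.35 (SE 0.288) and the actin regulator Cap1 at -0.41 (SE 0.402). Among 21 netrin receptors and effectors outside the set 8 were lower, with a median of 0.03. Flrt3, a ligand of UNC5 receptors, differed by 1.33 (SE 0.814), its value on wild-type array 3 being at the floor, the Rac exchange factor Dock1 by 0.29 (SE 0.285), Lrrc4b, an NGL protein, by -1.08 (SE 0.865) and the ubiquitin ligase Siah2 by -0.49 (SE 0.469). The lists share a few genes, such as Nck1. In these 3 lists limma called 0 genes and had 0 at an unadjusted p under 0.05.

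Of 22 other guidance and adhesion genes of olfactory axons 14 were lower in mutant (63.6%, beside 52.6% of all genes), with a median of -0.10. L1cam, an axonal adhesion molecule, was the only one at an unadjusted p under 0.05 without the block (0.598% of all genes), with 7.90, 6.28 and 7.87 in mutant, against 8.36, 8.84 and 9.17 in wild type (difference -1.44, SE 0.513; limma, adjusted p = 1). With the replicate block 3 of the 22 stood at an unadjusted p under 0.05 (L1cam, Pcdh10 and Bdnf, named after their values were seen), beside 1.24% of all genes. The groups of 3 did not overlap, beside 2.86% of all genes, and 5 were lower in each same-number pair, beside 9.46%. The other way, 1 was higher in each such pair, beside 6.31% of all genes. This list was chosen with earlier results of these data known, so its counts beside those shares are no independent support. Pcdh10, a protocadherin, differed by -2.04 (SE 1.024) with mutant array 2 at the floor, Igf1, a growth factor, by 0.40 (SE 0.444) and the L1 relative Chl1 by 0.26 (SE 0.545). The list holds Kirrel2 and Ncam1, which also stand among the neuron markers. No test of the difference between this list and the 31 guidance genes was made.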

How the data were processed

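The authors deposited linear intensities of 45037 probe sets on 6 arrays; per the labels, RNA was amplified and labelled with biotin. Their probe summary, background correction and scaling are not stated in the labels. Total deposited intensity ran from 10064207 to 14439788 per array. Because array quartiles differed by up to 0.69 on the log2 scale, arrays were quantile normalized, values below the 20th percentile (12.56) were set to it, and log2 was taken. The platform annotation gave 34945 probe sets 1 symbol, and 1 probe set per gene was kept, the brightest of the 83 for the 41 members. Genes with a mean below 5.19, the level under which 40% of the probe sets with 1 symbol lay, were left out as dim, which left 12703.

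The genotypes were compared in R 4.3.3 by limma 3.58.1 (two-sided, trended eBayes). The p-values were adjusted by Benjamini-Hochberg over the genes tested, with a threshold of 0.05. Only 3 arrays per group limit the precision. Replicate numbers come from the labels. Deviations from the group means correlated between same-numbered arrays at 0.47, 0.18 and 0.56 for numbers 1, 2 and 3. Mutant array 1 and wild-type array 2 gave 0.22, above the number 2 pair, so the values do not set number 2 apart as a pair. Deviations within a group cancel out, so a shift of the arrays numbered 3 also ties the other arrays together. Whether the numbers mark true pairs is not known, and the number was fitted as a block only in an alternative. That block changed no call. The other alternatives changed the dim filter, normalization, floor, variance model, array weights, probe set and arrays used.

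The members and lists were chosen with earlier results of these data known. Named with a value on each array are the 6 tested members of smallest p in each direction, any whose groups do not overlap, and Slit1, Epha5, Efna5, Efna3, Efnb1, Ntn1 and Dcc. Values on each array of other members, Robo2 and Unc5b among them, were added after their values were seen. Ephb2, also in the rule, is not analysed here. Of each pathway list the 2 genes of smallest p in each direction are named.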

Additional observations from a re-analysis of the deposited data

How the results depend on the processing

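All 19 alternatives gave 0 genes called, of the set and of all genes (limma), the replicate block among them, with 0 guidance genes called under the pairing. The count of guidance genes at an unadjusted p under 0.05 was 0, became 1 with array weights (Epha3), 0 to 1 when 1 array was left out (Epha3 when mutant 3 or wild type 2 was dropped, Efna3 when wild type 3 was) and 2 without both arrays numbered 3 (Efna3 and Epha3). The count lower in mutant, 12 of 31, was 7 of 19 with the dim level set at the lowest 60% of probe sets, a filter that tests fewer genes. It was 7 to 15 when 1 array was left out, with 7 of 31 without mutant array 2. The share lower among all genes moved too: it was 52.6%, then 42.1% without mutant array 2, 54.9% without mutant array 1, 59.8% without wild-type array 3 and 40.7% with no normalization, where 9 of 31 of the set were lower. The median difference of the set, 0.13, ran from -0.01 to 0.19 when 1 array was left out and from 0.09 to 0.20 under the other alternatives. Of 4 Klf7 probe sets past the threshold, 1 to 4 stayed past it when 1 array was left out (1 when wild type 1 was dropped, 2 when mutant 1, mutant 3 or wild type 2 was), and 0 did when both number 3 arrays were dropped, where fewer arrays are fitted.

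Of the 16 genes shown by array, 7 kept their sign in each alternative that tested them: Efna3, Epha3, Epha5, Ephb4, Ephb6, Unc5a and Unc5d. Unc5a was tested in 11 of the 19 and Ephb6 in 15. Their sizes moved, from -1.51 to -0.09 for Efna3, 0.40 to 1.76 for Epha3, -0.81 to -0.11 for Epha5, -1.18 to -0.49 for Ephb4, -0.60 to -0.19 for Ephb6, 0.44 to 1.61 for Unc5a and 0.65 to 1.56 for Unc5d. The signs of the others turned as follows, and the cause was not tested. Slit1 was 0.034 with no normalization and 0.32 with array weights, and Robo4 0.15 with array weights. With the mean of probe sets Efna5 was 0.20, Efnb1 -0.24 and Epha7 -0.0023. Without both arrays numbered 3 Efna2 was -0.12 and Efna5 0.10. When 1 array was left out, the ranges were -0.75 to 0.75 for Slit1, -0.49 to 0.21 for Robo4, -0.49 to 0.17 for Efna5, -0.55 to 1.34 for Efna2, -0.22 to 0.81 for Efnb1, -0.053 to 0.82 for Ephb1, -0.32 to 0.35 for Ntn1 and -0.024 to 0.90 for Dcc.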
